A study of Mus musculus with 4 samples.

Results

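Ribosome biogenesis and nucleolar factors are the proteins that transcribe, modify, cut and fold ribosomal RNA and assemble it with ribosomal proteins. The 35 genes described here were taken by symbol from a list of such factors. That list was proposed with earlier results of these data known, so it is not independent of them. All 35 were among the 54838 genes listed in each library, and all 35 passed the filter on low counts that left 12510 genes for testing. The study sequenced RNA from Hepa1-6, a mouse hepatocellular carcinoma cell line. One group, NC, had 2 samples labelled wild type for Acvr2a, the gene of an activin type II receptor. The other, KO, had 2 samples labelled as Acvr2a knockout in the same cell line. The design text describes the KO cells as subclones and does not say whether the samples labelled KO are separate subclones or cultures of 1, so the p-values measure the spread between these samples, which may be technical, and the knockout and clonal history cannot be told apart. The comparison asks how the transcriptome of the KO cells differs from that of the NC cells.

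A ribosome is made in the nucleolus, where RNA polymerase I copies the ribosomal DNA into a long precursor RNA. Small nucleolar RNAs, carried in box C/D and box H/ACA protein particles, guide methylation and pseudouridylation of that precursor, while a small subunit processome and a series of large subunit particles cut and fold it. In liver and hepatoma cells, as in other growing cells, the genes for these factors are known targets of the transcription factor MYC.

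Library totals lay between 11597923 and 13910582 counts. Correlations of log2 CPM (counts scaled to a common library size) over tested genes were 0.989 within NC, 0.989 within KO and 0.963 to 0.972 between the groups. For Acvr2a itself the NC libraries held 81 and 108 counts and the KO libraries 75 and 97 (log2 fold change −0.21 ± 0.20 SE, adjusted p = 0.433), so its RNA level did not distinguish the labels, and a gene-level count need not show a coding change. KO below means the libraries labelled KO. Of the hepatocyte or hepatoma markers, Afp, Alb, Trf, Hnf4a, Foxa2, Krt8 and Krt18 were present in every library, as was Apob (1007 to 1225 counts). Apoa1 was low, at 17 to 39 counts, and Ttr and Serpina1a had at most 5 counts in any. The summed level of these 11 markers was 3501 to 3743 CPM in NC and 3794 to 3830 CPM in KO. Summed leukocyte markers (5 genes, Cd3e at 0) were 22.5 to 24.9 CPM in NC and 48.4 to 60.7 CPM in KO, nearly all of it Cd68. Of the 5 leukocyte genes Cd68 was called higher, of the hepatocyte or hepatoma genes Alb and Trf were higher and Afp, Hnf4a and Foxa2 lower, and of the fibroblast or stellate genes Col1a1, Pdgfra and Des were higher. Endothelial markers (4 genes, Cdh5 and Tek at 0) summed to at most 1.06 CPM, and fibroblast or stellate markers (6 genes) to 1485 to 1494 CPM in NC and 1640 to 1719 CPM in KO, nearly all of it Dcn. The part of these markers in the results below was not tested. In bulk RNA, fewer cells of a type and less RNA per cell cannot be told apart.

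Of the 35 factors, 23 fell in KO at an adjusted p under 0.05 and 0 rose. Over all 12510 genes tested, 18.2% were called lower, 19.7% higher and 37.9% in either direction, against 65.7% of these factors called lower. The median log2 fold change was −0.43 over the 35 genes and −0.0037 over all genes tested. The fold changes ran from −0.97 for Bysl to 0.20 for Gnl3, and 32 of the 35 were negative. Since the factors are well expressed, the 6783 genes at or above the level of the lowest of them are a closer background. Of those, 24.8% were called lower and 18.7% higher, with a median of −0.048. For 26 of the factors both KO libraries lay below both NC libraries, as they did for 34.7% of all genes tested. For Ppan and Gnl3 both lay above, as for 34.8% of all genes. The groups overlapped for the other 7. These counts describe the list, whose members were proposed with results of these data known, and carry no test of the list.

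**Figure D1:**
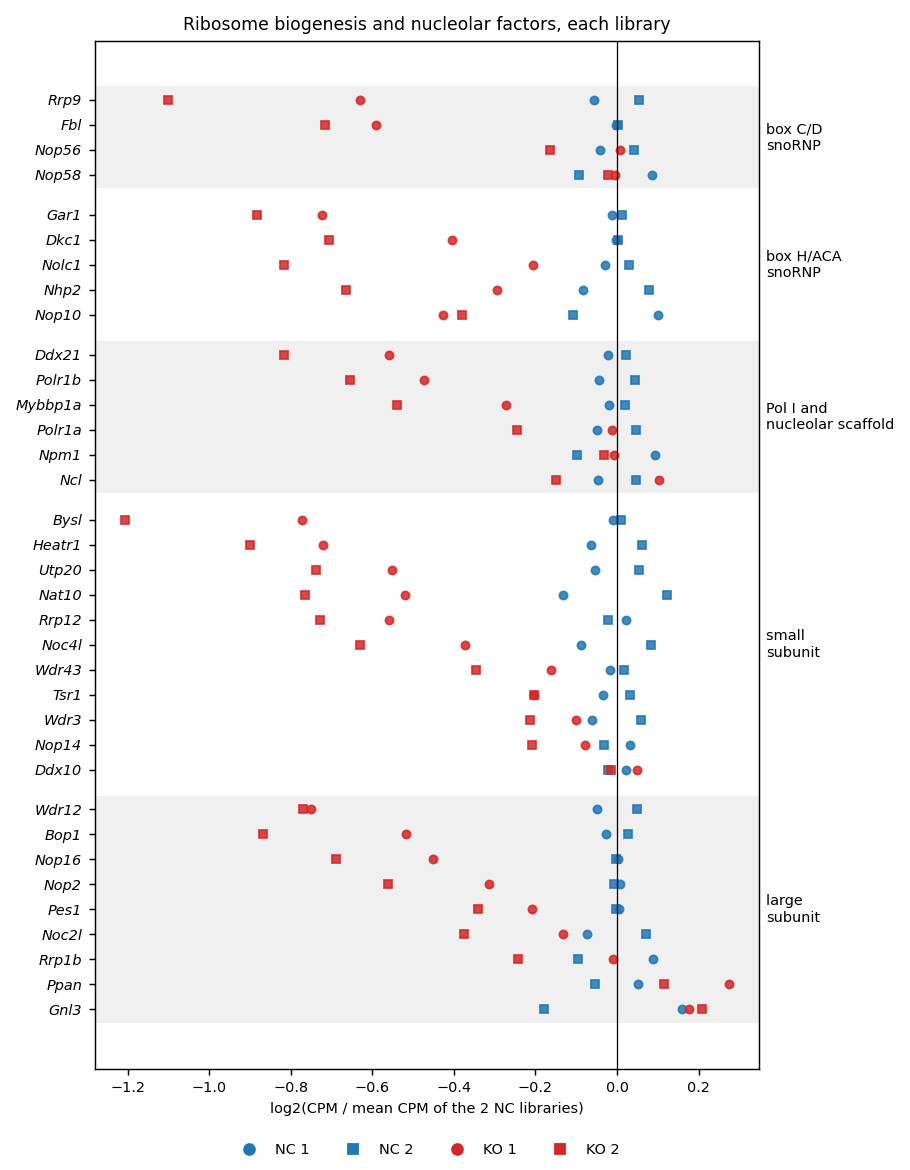
Level of each of the 35 factors in each library, as log2 of its CPM over the mean CPM of the 2 NC libraries (x axis), grouped by role and ordered by fold change within a role. Blue marks are NC and red marks KO, with circles for replicate 1 and squares for replicate 2, and 26 factors have both red marks to the left of both blue marks.

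The KO libraries were unequal in these genes. KO 2 was below KO 1 for 33 of the 35 factors, with a median log2 ratio of −0.18 and a range of −0.61 to 0.047, whereas over all genes tested with a count in each library KO 2 was below KO 1 for 49.3%, with a median of 0.0030. NC 2 was below NC 1 for 12 of the 35 (34.3%), with a median log2 ratio of 0.040. Over all those genes NC 2 was below NC 1 for 50.3%, with a median of −0.0013. KO 2 was the lowest of the 4 libraries for 29 factors, NC 2 for 5 and KO 1 for 1. Set against the NC mean, the median factor stood at −0.30 on the log2 scale in KO 1 and at −0.56 in KO 2. Both KO libraries therefore lay below NC at the median, and KO 2 lay further. Without KO 2, 19 factors were called lower, against 13.6% of all genes tested, and the calls of Nolc1, Wdr43, Pes1 and Noc2l were lost. Without KO 1, all 23 calls remained, against 17% of all genes tested.

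Box H/ACA particles turn uridine into pseudouridine in ribosomal RNA and also stabilise telomerase RNA. The 5 factors grouped under them all fell (5 of 5 lower, median −0.48), where 18.2% of all genes tested were lower. With limma on the authors' length-scaled levels (TPM) over the same genes, 1 of the 5 was called lower, Gar1. Gar1, a core protein of the particle, had 31.4 and 32.0 CPM in NC and 19.2 and 17.2 CPM in KO. Both KO libraries were well below NC, by 42.6% on the fitted scale (log2 fold change −0.80 ± 0.13 SE, adjusted p = 1.51e-05). Dkc1, the pseudouridine synthase dyskerin, stood at 60.5 and 60.8 CPM in NC and 45.8 and 37.2 CPM in KO. Its log2 fold change was −0.55 ± 0.11 (adjusted p = 0.000202), with no overlap between the groups. Nhp2, an RNA-binding core protein, fell from 115 and 128 CPM to 99.0 and 76.7 CPM (−0.47 ± 0.11, adjusted p = 0.000941). Without KO 2 its change was −0.30, still past the threshold. Nop10, the smallest core protein, went from 134 and 116 CPM to 92.8 and 95.9 CPM (−0.40 ± 0.10, adjusted p = 0.00162). Without NC 1 its change was −0.30 and its call was lost. Nolc1, a chaperone that shuttles between the nucleolus and Cajal bodies and binds both kinds of particle, had 292 and 304 CPM in NC and 258 and 169 CPM in KO. KO 1 lay much nearer to NC than KO 2 did, and the change of −0.48 ± 0.12 (adjusted p = 0.00254) became −0.21 without KO 2 and −0.82 without KO 1. The call of Nolc1 was also lost with DESeq2.

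The 4 box C/D factors split into pairs, with 2 lower and 2 at nearly equal levels, where 18.2% of all genes tested were lower. Fbl, the methyltransferase fibrillarin, had 212 and 213 CPM in NC and 141 and 129 CPM in KO. The NC libraries differed by under 1 CPM, and the fall was 36.4% (log2 fold change −0.65 ± 0.09, adjusted p = 3.25e-06). Rrp9, which binds the U3 particle that guides the first cuts of the precursor, had 26.6 and 28.7 CPM in NC and 17.8 and 12.9 CPM in KO (−0.85 ± 0.14, adjusted p = 4.13e-05). The scaffold proteins of the same particles, Nop56 and Nop58, behaved otherwise. Nop56 had 239 and 254 CPM in NC and 248 and 220.2 CPM in KO, and Nop58 had 82.4 and 72.8 CPM in NC and 77.3 and 76.4 CPM in KO. The groups overlapped for both. The 95% interval of the log2 fold change was −0.27 to 0.11 for Nop56 and −0.21 to 0.19 for Nop58 (adjusted p = 0.550 and 0.939), so falls of the size seen for Fbl lay outside both intervals. The difference between Fbl and these partners was not itself tested.

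Of the 6 RNA polymerase I and nucleolar scaffold genes, 3 fell and 3 made no call (median −0.26), where 18.2% of all genes tested were lower. Ddx21, an RNA helicase that couples polymerase I transcription to processing, had 137 and 141 CPM in NC and 94.3 and 78.8 CPM in KO. The fall was 37.7% (−0.68 ± 0.10, adjusted p = 4.43e-06), and the groups were far apart. The subunits of the polymerase differed: Polr1b, the second-largest, went from 40.0 and 42.5 CPM to 29.8 and 26.2 CPM (−0.56 ± 0.11, adjusted p = 0.00027), while Polr1a, the catalytic subunit, had 137 and 146 CPM in NC and 140.1 and 119 CPM in KO (−0.12 ± 0.10, adjusted p = 0.328). Mybbp1a, a nucleolar protein that binds MYB and p53, had 759 and 780.3 CPM in NC and 637 and 529.9 CPM in KO (−0.40 ± 0.10, adjusted p = 0.00214). Npm1 and Ncl, abundant like Mybbp1a, showed no call. Npm1, the histone chaperone nucleophosmin, had 1311 and 1149 CPM in NC and 1224 and 1203 CPM in KO. Ncl, nucleolin, which binds the nascent precursor, had 673 and 718 CPM in NC and 747 and 627 CPM in KO. Groups overlapped for both, and the 95% intervals were −0.22 to 0.18 for Npm1 and −0.22 to 0.19 for Ncl (adjusted p = 0.897 and 0.913). RSEM can share reads among near-identical copies of a gene, and whether this touches Npm1 was not tested. A search for entries whose symbol is Npm1 followed by -ps found 0, but copies under other names would be missed.

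Of the 11 small subunit factors, 7 were lower and 0 higher, with a median of −0.50, where 18.2% of all genes tested were lower. Bysl, bystin, which acts late in small subunit maturation, had 62.1 and 63.0 CPM in NC and 36.6 and 27.1 CPM in KO. Its fall of 49.1% (−0.97 ± 0.12, adjusted p = 2.22e-07) was the largest of the 35 in this fit. Heatr1, a processome protein also needed for polymerase I transcription, went from 59.9 and 65.3 CPM to 38 and 33.5 CPM (−0.81 ± 0.10, adjusted p = 8.32e-07). Utp20, a large helical protein of the processome, went from 75.6 and 81.5 CPM to 53.6 and 47.1 CPM (−0.64 ± 0.10, adjusted p = 1.33e-05). In all 3 genes every KO library lay below every NC library by more than the NC libraries differed. Nat10, the enzyme that places acetylcytidine on small subunit RNA, had 50.4 and 60.2 CPM in NC and 38.6 and 32.5 CPM in KO (−0.64 ± 0.11, adjusted p = 5.79e-05). Rrp12, an export factor, had 36.1 and 35 CPM in NC and 24.1 and 21.5 CPM in KO (−0.64 ± 0.12, adjusted p = 0.000116). Noc4l, a partner of Nop14, had 54.6 and 61.6 CPM in NC and 44.9 and 37.5 CPM in KO (−0.50 ± 0.11, adjusted p = 0.000589). These 3 also fell with no overlap, and both KO libraries lay below both NC libraries for 34.7% of all genes tested. Wdr43 was closer to the threshold, with 109.7 and 112 CPM in NC and 99.2 and 87.3 CPM in KO (−0.25 ± 0.09, adjusted p = 0.0371), and its call was lost without NC 1, without NC 2, without KO 2 (−0.16), with library totals only and with DESeq2.

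For 3 small subunit genes with no call, both KO libraries lay under both NC libraries, as they did for 34.7% of all genes tested. Tsr1, a GTPase-like late factor, had 104 and 108 CPM in NC and 92.1 and 92.0 CPM in KO (−0.20, adjusted p = 0.0808). Wdr3 of the processome had 43.0 and 46.8 CPM in NC and 41.9 and 38.7 CPM in KO (−0.16, adjusted p = 0.245), and Nop14 had 56.6 and 54.2 CPM in NC and 52.5 and 48.0 CPM in KO (−0.14, adjusted p = 0.278). The helicase Ddx10 was the gene of this role with a positive value, at 22.3 and 21.6 CPM in NC and 22.7 and 21.7 CPM in KO. The groups overlapped, and its 95% interval was −0.24 to 0.28.

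Of the 9 large subunit factors, 6 fell and 0 rose (median −0.27), where 18.2% of all genes tested were lower. Pes1, Bop1 and Wdr12 form the PeBoW complex, which is needed to process the spacer that precedes the large subunit RNA, and all 3 were lower, by unequal amounts. Wdr12 had 41.1 and 44.0 CPM in NC and 25.3 and 24.9 CPM in KO (−0.76 ± 0.11, adjusted p = 5.58e-06). Bop1 had 85.3 and 88.6 CPM in NC and 60.7 and 47.7 CPM in KO (−0.68 ± 0.11, adjusted p = 1.22e-05). Pes1 had 226 and 225 CPM in NC and 196 and 178 CPM in KO (−0.27 ± 0.09, adjusted p = 0.0194). Groups were apart for all 3, with KO below NC as for 34.7% of all genes tested. The call of Pes1 was lost without NC 1, without NC 2, without KO 2 and with library totals only. Nop16 went from 58.0 and 57.8 CPM to 42.4 and 35.9 CPM (−0.56 ± 0.10, adjusted p = 0.000116). Nop2, which methylates large subunit RNA, went from 224 and 221 CPM to 179 and 151 CPM (−0.43 ± 0.10, adjusted p = 0.000767). Noc2l, an early pre-ribosome factor, had 184 and 203 CPM in NC and 177 and 149 CPM in KO (−0.25 ± 0.10, adjusted p = 0.0441), and lost its call without NC 2 (−0.17), without KO 2 (−0.14), with library totals only and with DESeq2. Without KO 1 it was −0.38. Rrp1b had 69.7 and 61.3 CPM in NC and 65.0 and 55.4 CPM in KO, with overlapping groups (−0.12, adjusted p = 0.385).

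Ppan and Gnl3 were the genes with both KO libraries above both NC libraries. Ppan, a large subunit assembly factor, had 60.0 and 55.7 CPM in NC and 70.0 and 62.6 CPM in KO (0.20 ± 0.10, adjusted p = 0.118). Gnl3, the GTPase nucleostemin, had 49.3 and 39.0 CPM in NC and 49.9 and 51.0 CPM in KO (0.20 ± 0.11, adjusted p = 0.158). NC 1 lay just under the KO libraries in Gnl3 and NC 2 well below them. Its value was 0.36 without NC 1, past the threshold (adjusted p = 0.0327), and 0.035 without NC 2, and its adjusted p lay between 0.0159 and 0.874 over all alternatives. Its mean transcript length as estimated by the authors' software was 1502 and 1276 bases in NC and 1145 and 1200 bases in KO, so length-scaled levels give it a larger rise, from 41.8 ± 0.502 TPM to 61.6 ± 3.52 TPM (the authors' length-scaled unit, mean ± SD, n = 2).

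**Figure D2:**
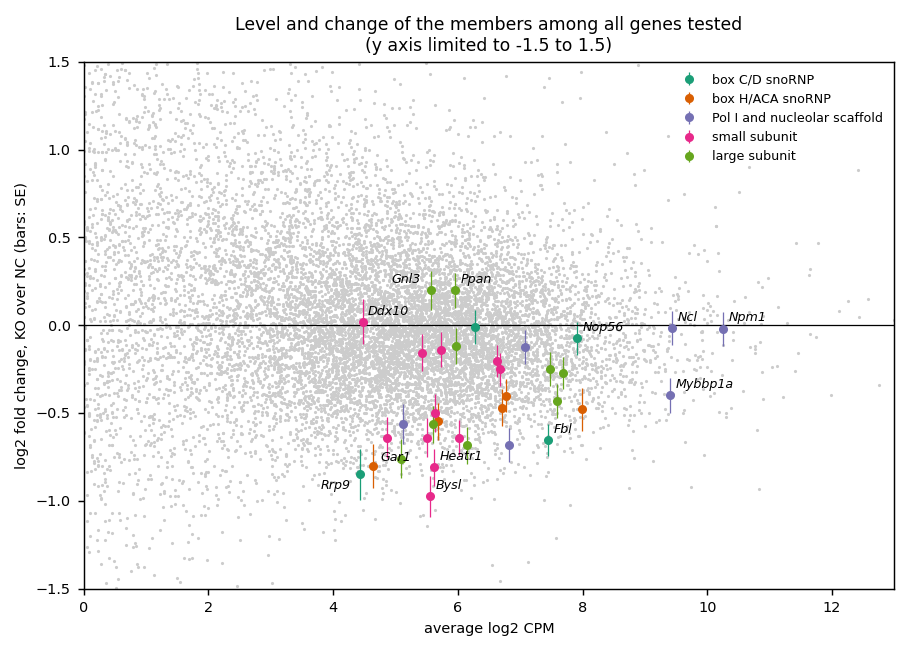
Average log2 CPM of each gene over the 4 libraries (x axis) and its log2 fold change, KO over NC (y axis, limited as labelled). Grey points are genes tested and coloured points with SE bars are the 35 factors by role, most of which lie below 0, with Npm1 and Ncl at the right close to 0.

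Compared per length, in TPM, the levels of the factors spread widely, with Npm1 the highest. Npm1 stood at 1446 ± 104 TPM in NC and 1533 ± 72.4 TPM in KO (SD, n = 2). Next in NC were Nop56 at 263 ± 28.4 TPM, Fbl at 244 ± 9.09 TPM and Ncl at 232 ± 19.3 TPM, whose order is not clear against their spread. The lowest in NC were Ddx10 at 8.28 ± 0.120 TPM and Rrp12 at 9.50 ± 0.134 TPM. Npm1 and Ncl together made up 40.9% of the summed TPM of the 35 genes in NC. The sum over all 35 was 4067 and 4149 TPM in NC and 4097 and 3507 TPM in KO, so KO 1 lay between the NC libraries. Without Npm1 and Ncl the sum was 2329 and 2530 TPM in NC and 2235 and 1803 TPM in KO, with both KO libraries below. Across the 35 factors, log2 CPM and the log2 fold change had a Pearson r of 0.34 and a Spearman rho of 0.36 (n = 35 genes of the same libraries, a description).

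Mean transcript length differed little between the groups for most factors, with a KO to NC ratio within 0.9 to 1.1 for 31 of 35 and between 0.835 and 1.22 for all. Utp20 was the gene with the ratio of 1.22, at 3771 and 4436 bases in NC and 5019 and 5020 bases in KO, and its fall on the TPM scale was accordingly larger, from 22.2 ± 0.757 to 12 ± 1.45 TPM (SD, n = 2). Heatr1 had the ratio of 0.835, at 4197 and 4580 bases in NC and 3993 and 3339 bases in KO. Its TPM was 16.4 ± 0.495 in NC and 11.9 ± 0.205 in KO (SD, n = 2), a smaller difference than in CPM, and it made no call on that scale. On the log2(TPM + 1) scale limma called 9 of the 35 lower, where 5.52% of all genes were, and Gnl3 higher, and these 9 were all among the 23.

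A further feature was seen after the values were known and is given as a description only. Small nucleolar RNAs are commonly encoded in introns of ribosome-related genes, and 8 of the 35 factors hold an annotated snoRNA gene on their own strand: Nop56, Nop58, Dkc1, Ncl, Wdr43, Tsr1, Ppan and Gnl3. Of these 8, 2 (25%) were lower in KO, with a median log2 fold change of −0.046. Of the 27 without one, 21 were lower, with a median of −0.50. Among all genes at or above the level of the lowest factor, 24.8% were lower. Of the 9 factors whose KO values overlapped or exceeded those of NC, 5 were snoRNA hosts. Over all genes tested, 34.7% had both KO libraries below both NC libraries, and the rest overlapped or exceeded NC. Dkc1 holds a snoRNA gene and fell, whereas Npm1, Polr1a, Rrp1b and Ddx10 hold none and overlapped. Over all 214 tested protein-coding genes with a snoRNA gene inside, 22.4% were called lower and 25 genes higher, with a median of −0.060. Whether the groups of hosts and non-hosts differ was not tested. The snoRNA genes themselves, 23 in all, had 0 counts in every library, so the guide RNAs were not measured. As examples, 1 box C/D snoRNA is printed for each of 5 hosts that made no call, and each of these hosts holds others. The letters are DNA, 5′ to 3′, from GENCODE M21 (GRCm38). Capitals mark the first TGATGA, the box C core, and the last CTGA, box D. The snoRNA genes in Tsr1, also without a call, lack the letters TGATGA and are not printed. The methylase Fbl and its partners Nop56 and Nop58 are known to assemble on boxes C and D. No link between these boxes and the changes was tested.
Snord110, in Nop56, chr2:130275506-130275573, plus strand: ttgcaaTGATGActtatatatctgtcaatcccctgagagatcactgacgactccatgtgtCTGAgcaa
Snord11, in Nop58, chr1:59704790-59704873, plus strand: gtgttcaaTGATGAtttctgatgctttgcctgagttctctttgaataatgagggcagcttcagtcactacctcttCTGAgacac
Snord82, in Ncl, chr1:86356261-86356330, minus strand: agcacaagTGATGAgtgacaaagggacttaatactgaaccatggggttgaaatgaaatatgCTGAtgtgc
Snord69, in Gnl3, chr14:31014287-31014366, minus strand: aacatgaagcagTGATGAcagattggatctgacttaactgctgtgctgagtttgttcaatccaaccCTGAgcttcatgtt
Gm23008, in Ppan, chr9:20890757-20890836, plus strand: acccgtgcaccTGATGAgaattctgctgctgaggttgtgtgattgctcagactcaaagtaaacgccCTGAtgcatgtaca

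**Figure D3:**
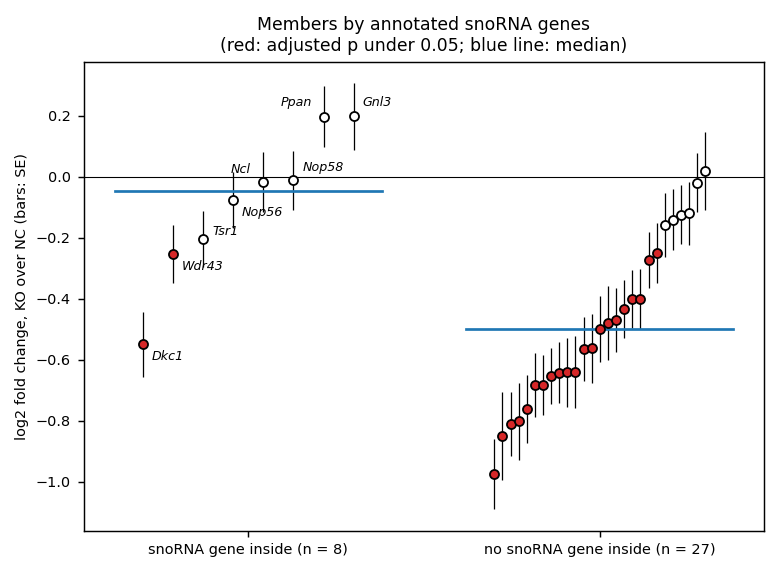
Log2 fold change, KO over NC (y axis, bars are SE), of the 8 factors with an annotated snoRNA gene inside and the 27 without, in order of value within each set (x axis). Filled points have an adjusted p under 0.05 and the blue lines are the medians of −0.046 and −0.50.

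The 35 genes lie on 16 chromosomes. Exons of 18 of them overlap a gene on the opposite strand, among them Bysl with Ccnd3, Heatr1 with Lgals8, Rrp9 with Parp3 and Bop1 with Mroh1. The libraries keep strand, but how strand was used in counting is not given in the sources used here, so reads of such pairs may not be told apart. Of the 18, 11 were lower, where 18.2% of all genes tested were. Of the 17 without such an overlap 12 were lower, among them Fbl, Gar1, Ddx21, Utp20, Nat10 and Rrp12.

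Other genes of ribosome assembly are given from lists written from general knowledge, but with earlier results of these data known. Their counts are a description and carry no test. Of 122 such genes, all tested, 58 were lower (47.5%) and 2 higher, beside 18.2% lower and 19.7% higher over all genes tested and 24.8% lower at the level of the 35 factors. Their median log2 fold change was −0.26. Among 41 other small subunit factors, 22 were lower and 1 higher (median −0.31). The largest falls there were Pwp2 of the processome at −0.88 ± 0.13 (adjusted p = 6.09e-06), Utp18 at −0.75 ± 0.13 (adjusted p = 6.71e-05) and Pno1 at −0.74 ± 0.13 (adjusted p = 8.06e-05). Utp3 rose by 0.35 ± 0.12 (adjusted p = 0.0204), a call lost without NC 1, without KO 1 and with DESeq2. Among 44 other large subunit factors, 21 were lower and 0 higher (median −0.22), led by the helicase Ddx18 at −0.81 ± 0.10 (adjusted p = 4.21e-07), Mrto4 at −0.75 ± 0.13 and Urb1 at −0.73 ± 0.13. Of 13 genes of the RNA exosome, which trims precursor ends, 7 were lower and 0 higher (median −0.43), led by Exosc5 at −0.73 ± 0.15 (adjusted p = 0.000343), Exosc1 at −0.55 ± 0.10 and Exosc2 at −0.55 ± 0.12.

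Among 11 snoRNP assembly factors, 3 were lower (27.3%, near the background) and 0 higher (median −0.21). These were Snu13, a box C/D core protein, at −0.56 ± 0.10 (adjusted p = 5.88e-05), the ATPase Ruvbl1 at −0.48 ± 0.10 and Naf1, a box H/ACA assembly protein, at −0.40 ± 0.11, whose call was lost without NC 2. Among 13 other genes of the polymerase I machinery, 5 were lower and 1 higher (median −0.13), beside 18.2% lower and 19.7% higher over all genes tested. Tcof1, treacle, fell by 0.57 ± 0.11 on the log2 scale (adjusted p = 0.000111), Znrd1, a polymerase I subunit, fell by 0.48 ± 0.13, and Taf1a, of the selectivity factor that places polymerase I on the promoter, fell by 0.42 ± 0.16 (adjusted p = 0.0365, lost without NC 1, without NC 2, without KO 1, with library totals only and with DESeq2). Taf1d, of the same selectivity factor, had 44.6 and 41.4 CPM in NC and 70.2 and 75.0 CPM in KO. It rose by 0.76 ± 0.10 (adjusted p = 1.17e-06) with both KO libraries well above NC, opposite in sign to Taf1a. The summed level of all 122 genes was 5100 and 5137 TPM in NC and 4627 and 4093 TPM in KO, again lowest in KO 2.

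**Figure D4:**
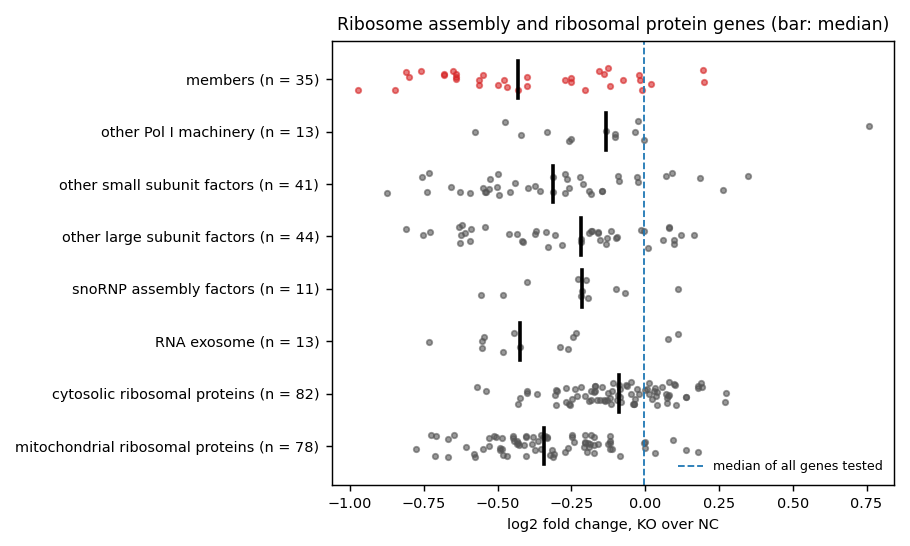
Log2 fold change, KO over NC (x axis), of each gene (points) of the 35 factors, the 5 other assembly lists and the ribosomal proteins, with list medians as black bars. The dashed line is the median of all genes tested, −0.0037, and every list median lies to its left, from −0.088 for cytosolic ribosomal proteins to −0.43 for the 35 factors.

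MYC acts as a dimer with MAX on the letters CACGTG, the E-box. Myc had 301 and 353 CPM in NC and 299.8 and 256 CPM in KO, a log2 fold change of −0.24 ± 0.10 that missed the threshold (adjusted p = 0.0593). Without NC 1 it was −0.35 and without KO 1 −0.36, both past the threshold, whereas without NC 2 it was −0.12 and without KO 2 −0.13, both short of it. The Myc call thus turns on single libraries of both groups. Max, at 90.9 and 100.1 CPM in NC and 68.8 and 70.9 CPM in KO, fell by 0.45 ± 0.09 on the log2 scale (adjusted p = 0.000448). Mycl, a low-level relative, rose from 10 and 10.7 CPM to 20.4 and 13.8 CPM (0.72 ± 0.17, adjusted p = 0.00141), a call that was lost without KO 1, where it was 0.42. Mycn had at most 3.92 CPM in any library and no call (0.28 ± 0.31, adjusted p = 0.510).

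The letters CACGTG, a palindrome and so the same on both strands, were searched from 250 bases before to 50 bases after the RefSeq start (GRCm38.p6) of the 31 factors that had an entry in that table. They were found in 6 of 31 (19.4%), in 20 of 101 other assembly genes (19.8%), in 1119 of 9382 tested genes with an entry (11.9%) and in 2187 of all 27025 entries (8.09%). Of the 20 factors called lower 5 held the letters, and of the 11 with no call 1 did. Bysl, Rrp9, Heatr1, Gar1 and Wdr12, with the largest falls of the 35, had entries without the letters. Fbl, Bop1, Rrp12 and Npm1 had no entry. The 6 matches are printed to show their setting, as 30 bases 5′ to 3′ on the gene's strand with the letters in capitals. Nop2 has them upstream, with the first C at position −60, and the other 5 have them within the first 50 transcribed bases, from position 3 in Pes1 to position 41 in Mybbp1a, counted from 1 at the start. Tsr1 is the one of the 6 with no call. A match is a description of the letters and not evidence of binding.
Nop2, chr6:125131811-125131840, plus strand: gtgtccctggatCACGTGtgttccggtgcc
Pes1, chr11:3963965-3963994, plus strand: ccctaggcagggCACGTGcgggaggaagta
Wdr43, chr17:71616220-71616249, plus strand: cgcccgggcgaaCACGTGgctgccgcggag
Tsr1, chr11:74898092-74898121, plus strand: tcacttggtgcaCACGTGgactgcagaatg
Utp20, chr10:88826765-88826794, minus strand: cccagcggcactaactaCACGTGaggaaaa
Mybbp1a, chr11:72441347-72441376, plus strand: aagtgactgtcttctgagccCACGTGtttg

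Impaired ribosome assembly is known to let the ribosomal proteins Rpl5 and Rpl11 bind Mdm2, which otherwise marks p53 for breakdown. Of the 7 genes listed for that response, 3 rose, 1 fell and 3 made no call, beside 19.7% higher and 18.2% lower over all genes tested. Whether these changes belong to that response was not tested. Mdm2 had 107 and 104 CPM in NC and 167 and 173 CPM in KO (0.69 ± 0.09, adjusted p = 1.56e-06), and Mdm4, its relative, had 73.4 and 76.8 CPM in NC and 99.9 and 130.4 CPM in KO (0.62 ± 0.11, adjusted p = 5.16e-05; 0.41 without KO 2). The cell cycle inhibitor Cdkn1a had 367 and 347 CPM in NC and 465 and 502 CPM in KO (0.44 ± 0.09, adjusted p = 0.000472). Trp53 RNA was lower, at 549 and 553 CPM in NC and 359.8 and 313 CPM in KO (−0.71 ± 0.09, adjusted p = 1.44e-06). In all 4 genes the groups did not overlap. Of all genes tested, 34.8% had both KO libraries above both NC libraries and 34.7% had both below. Rpl5, Rpl11 and Cdkn2a made no call.

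Counts over ribosomal RNA sequence were low and varied most within NC. CT010467.1, an rRNA entry, held 0.336% and 0.102% of the counts in NC and 0.0686% and 0.0475% in KO. The neighbouring entry AY036118 received 6227 and 2434 reads in NC, against 1035 and 809 in KO. Both were lower in KO (−1.96 ± 0.26, adjusted p = 1.71e-06, and −2.38 ± 0.25, adjusted p = 4.46e-08). Without NC 1 the changes were −0.85 and −1.35, and the call of CT010467.1 was lost with DESeq2. How the libraries were depleted of or selected against ribosomal RNA is not given in the sources used here, so these entries are no measure of precursor synthesis. Gm42418 (−0.28 ± 0.11, adjusted p = 0.0449) and Lars2 (−0.36 ± 0.11, adjusted p = 0.0148), which also hold ribosomal RNA-like sequence, lost their calls without NC 1, where they were −0.040 and −0.20, without KO 2 and with DESeq2. Gm42418 also lost its call with library totals only, and its value lay between −0.49 and −0.040 over all alternatives. Gm26917 made no call (0.10 ± 0.10).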

How the data were processed

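RNA from 2 NC and 2 KO samples was sequenced from libraries made with a directional kit, per the labels' protocols. The submitters' processing notes name FastQC, STAR, RSEM and DESeq2 and the builds GRCm38 and mm10, with no versions. The authors deposited an expected count per gene and sample, not normalised, in columns named as in RSEM gene output, per the file headers. The deposited TPM values are the authors' length-scaled levels, per the file headers, and the deposited FPKM values were not used. RSEM shares reads among near-identical genes.

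Expected counts were rounded, which changed totals by at most 0.000188%. The filterByExpr step of edgeR kept 12510 genes, which hold at least 99.9% of each library's counts, and TMM factors were 0.981 to 1.02. KO was set against NC by the quasi-likelihood test of edgeR 4.0.16 (R 4.3.3), with group as the only term, Benjamini-Hochberg adjustment over all tested genes and a threshold of 0.05. SEs were derived from each gene's fitted weights with the quasi-dispersion after moderation (prior degrees of freedom 25.8). CPM used TMM-scaled library sizes. Intervals cover counting error and the spread of these samples, and PCR copies were not separated. The steps were tested on simulated data. Replicates of a group differed by more than sampling noise (chi-square per degree of freedom 6.88 in NC and 9.44 in KO) and were counted as the labels give them, which does not show that they came from separate cultures.

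The 35 genes, their roles, the other lists and the naming rule were chosen with earlier results of these data known. A marker gene of the leukocyte list is not reported here. All 35 could be named, with values in each library for up to 3 called genes of a role at least. From each other list up to 3 called genes per direction with the largest change were named, plus Myc, Max, Mycl, Mycn, the ribosomal RNA entries and Acvr2a. Alternatives were other normalisations, DESeq2 1.42.0, no filter, limma 3.58.1 on log2(TPM + 1) or log2(TPM + 0.1), a replicate block and leaving out each sample. Coordinates and gene types came from GENCODE M21 (GRCm38), which matched 54723 of 54838 IDs without their version. Promoters came from the RefSeq table (GRCm38.p6), which matched 31 of the 35 by symbol.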

Additional observations from a re-analysis of the deposited data

How the results depend on the processing

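The 23 calls among the 35 factors had a negative fold change in each of the 12 alternatives. All 23 calls were kept with DESeq2-type size factors, with no filter on low counts and with the replicate block, and 20 were kept with library totals only and with DESeq2. Over 12510 genes tested, 2277 were lower with those size factors, 2420 with the block, 1961 with library totals only and 1554 with DESeq2. With no filter, 2336 of 20579 genes were lower. NC and KO samples of the same number did not deviate together (r = −0.012 over 12510 genes). With 2 samples a group the crossed pairing gives the same value with its sign reversed (0.012). Whether same-numbered samples were handled together cannot be told from this value, and the main test did not pair them. With the replicate block 5006 genes passed, 23 of the 35 factors were lower and none higher, and the other assembly genes gave 63 lower and 2 higher. Myc crossed the threshold under it (−0.24).

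The number of calls moved most with limma on TPM, which changes the unit and the test together, so their parts were not told apart. With limma on log2(TPM + 1) and log2(TPM + 0.1) over the same genes, 2158 and 2099 genes passed, 1467 and 1427 of them higher and 691 and 672 lower, so 68.0% of calls were higher in both, against 51.9% in the count test. The factors called lower were 9 and 9, and 1 and 1 (Gnl3) were higher. By role both TPM tests called lower 1 box H/ACA factor, 1 polymerase I or scaffold factor, 3 small subunit and 2 large subunit factors, and 21 other assembly genes, with 1 of the latter higher. Over every gene with a TPM, limma called 0 genes higher and 0 lower among 20640, although 4506 had an unadjusted p under 0.05, and so 0 factors of any role, box C/D included, and 0 other assembly genes. The median over the 35 factors was −0.34 or −0.35 on these scales. Over all genes the median was 0.060 and 0.070 in the tests of the same genes and 0.037 over every gene with a TPM. It was −0.0037 in the count test. DESeq2 called 3217 genes, and 1 other assembly gene higher.

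With 1 sample left out, where the lone sample is assumed to vary like the others, 3507 to 4488 genes passed (1831 to 2312 higher and 1656 to 2176 lower). Among the 35 factors 19 to 23 were lower and 0 to 1 higher (Gnl3, without NC 1), with medians of −0.56 to −0.30. By role the lower calls were 2 to 2 of box C/D, 4 to 5 of box H/ACA, 3 to 3 of polymerase I and scaffold, 6 to 7 of small subunit and 4 to 6 of large subunit factors. Among other assembly genes 44 to 64 were lower and 1 to 3 higher (1 without NC 1 and without KO 1, 3 without KO 2).

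Genes that changed sign made no call in the count test and none after changing sign. Ncl was 0.016 with library totals, 0.099, 0.10 and 0.099 with the TPM tests, 0.031 without NC 2 and 0.10 without KO 2. Npm1 was 0.014 with library totals, 0.085, 0.085 and 0.085 with the TPM tests and 0.072 without NC 1. Wdr3 was 0.039, 0.041 and 0.039 with the TPM tests. Nop58 was 0.021 with library totals and 0.072 without NC 1, and Nop56 was 0.0054 without KO 2. Ddx10 was −0.0033 without NC 2 and −0.015 without KO 1. Mycn was −0.072 without NC 1 and Gm26917 −0.0033 without KO 1. With 1 sample left out these genes ranged from −0.16 to 0.0054 (Nop56), −0.10 to 0.072 (Nop58), −0.15 to 0.10 (Ncl), −0.11 to 0.072 (Npm1), −0.015 to 0.049 (Ddx10), −0.072 to 0.80 (Mycn) and −0.0033 to 0.20 (Gm26917). The cause of these changes was not tested. With 2 samples a group, each test leans on a spread that many genes share.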

Other observations

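The ribosomal proteins, which these factors assemble into subunits, were selected by symbol and are given as values. Of 82 cytosolic ribosomal protein genes tested, 15 were lower in KO and 2 higher, with a median log2 fold change of −0.088, and 18.3% called lower stands beside 18.2% of all genes tested. Their summed level was 187225 and 183034 TPM in NC and 192272 and 174340.1 TPM in KO, so the groups overlapped. Of 78 mitochondrial ribosomal protein genes, which serve the separate ribosome of the mitochondrion, 42 were lower (53.8%) and 0 higher, with a median of −0.34. The difference between the 2 lists was not tested.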
